A study of Mus musculus with 13 samples.

Results

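Fatty acid uptake and beta-oxidation genes encode the proteins that take fatty acids from the blood into heart muscle and break them down in mitochondria. Lipases and carriers bring the fatty acid in, it is joined to coenzyme A, the carnitine shuttle moves it across the mitochondrial membranes, and repeated rounds of 4 enzyme steps then shorten it and pass electrons to the respiratory chain. In the adult heart this route is the main source of fuel, and its genes are widely used to follow the metabolic state of injured heart muscle. The 37 members were chosen by gene symbol, as the rows of the deposited count tables that carry those symbols, and were 37 of the 53278 symbols in the tables. All 37 passed the filter on low counts, which left 15690 genes.

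RNA was sequenced from whole hearts of 13 male wild-type C57Bl6 mice aged 17 weeks, with surgery and any injection at 12 weeks. IR edit (4 hearts) had IR, ischaemia and reperfusion of the heart, together with a functional system for editing CaMKIIdelta. IR virus (3 hearts) had IR together with a control virus. IR (3 hearts) had IR with no injection, and Sham (3 hearts) had the sham operation with no injection. CaMKIIdelta is a calcium-dependent kinase of heart muscle, and the study's title gives removal of its oxidation by CRISPR-Cas9 base editing as the treatment under test. No Sham heart received the editing system or a virus, so editing without injury was not measured. The labels give no kind or dose of virus, no promoter for the editor and no batch.

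The libraries held 20634820 to 27265276 counts, and levels below are CPM values, counts set relative to the library size after TMM scaling. Camk2d, the gene of the edited kinase, was at 209.7 to 248.3 CPM in IR edit, 197.2 to 233.5 in IR virus, 234.8 to 245.1 in IR and 199 to 280 in Sham, and passed no test. Gene counts do not show single-base edits. The 10 cardiomyocyte markers, among them Myh6, Tnnt2 and Myl2, summed to 44870 to 53790 CPM in IR edit, 49730 to 54210 in IR virus, 46960 to 49920 in IR and 47640 to 56740 in Sham, and none of them was at 0. In IR edit against Sham 7 of the 10 cardiomyocyte markers had negative log2 fold changes (50.2% of all genes), with a median of -0.16. In the edgeR test 0 of them passed as lower (3.40% of all genes) and 1 as higher (4.61%). The 4 lung markers summed to at most 0.378 CPM in any heart. The adipocyte markers, of which 4 of 8 passed the filter on low counts, summed to 12.7 to 16.6 CPM in IR edit, 12.9 to 17.7 in IR virus, 12.4 to 13.8 in IR and 12.0 to 12.8 in Sham. The 8 fibroblast markers summed to 1152 to 2131 CPM in IR edit, 1365 to 1909 in IR virus, 1261 to 1860 in IR and 1037 to 1091 in Sham. In IR edit against Sham 0 of the 8 were negative, with a median of 0.56, and 4 passed as higher (4.61% of all genes). The 5 atrial markers summed to 71.6 to 435.9 CPM in IR edit, 208.4 to 228.2 in IR virus, 148.1 to 230.8 in IR and 18.9 to 79.3 in Sham. Of these only Nppa, a natriuretic peptide gene also known from stressed ventricles, passed the test in IR edit against Sham. It had a log2 fold change of 3.38 ± 0.57 (edgeR adjusted p = 0.00384). In that comparison 3 of the 5 atrial markers had negative log2 fold changes, with a median of -0.33. In IR edit against IR virus 4 of the 5 were negative, with a median of -0.99. In IR virus against Sham and in IR against Sham 0 of the 5 were negative.

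The 4 IR edit hearts differed among themselves more than the hearts of the other groups did. The median coefficient of variation over the members was 17.0% in IR edit, 5.62% in IR virus, 6.26% in IR and 6.02% in Sham, and IR edit had the largest of the 4 values for 25 of 37 members. IR edit replicate 3 held the highest level of its group for 28 members, and replicates 2 and 4 were the lowest pair for 32 members. Taken over members, the median level was 79.3%, 71.7%, 94.1% and 70.2% of the Sham mean in IR edit replicates 1 to 4. It was 88.3% to 94.4% in the IR virus hearts and 86.7% to 92.1% in the IR hearts. Replicate 3 of IR edit was therefore inside the range of the injured hearts without editing, and the other IR edit hearts were below it.

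Summed over the members, levels were 17880, 16680, 21160 and 16380 CPM in IR edit, 19170, 20020 and 20410 in IR virus, 21090, 20850 and 20550 in IR, and 23150, 22480 and 24160 in Sham. Each injured heart was below each Sham heart in this sum, and IR edit replicate 3 was the highest of the injured hearts. Means were 18030 ± 2188 CPM in IR edit (SD, n = 4), 19870 ± 634.5 in IR virus, 20830 ± 272.1 in IR and 23260 ± 844.3 in Sham (SD, n = 3 each). In bulk tissue, fewer cells of a type and less RNA per cell cannot be told apart. The fibroblast marker sum in the IR edit hearts was 1347, 1743, 1152 and 2131 CPM for replicates 1 to 4, the reverse of the order of their member sums. The atrial marker sum was 123.4, 369.8, 71.6 and 435.9 CPM in the same hearts, again the reverse order. As given above, the atrial markers did not all move one way in IR edit against Sham. Whether the hearts differed in atrial tissue was not tested. The part of either sum in the member levels was not tested.

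**Figure D1:**
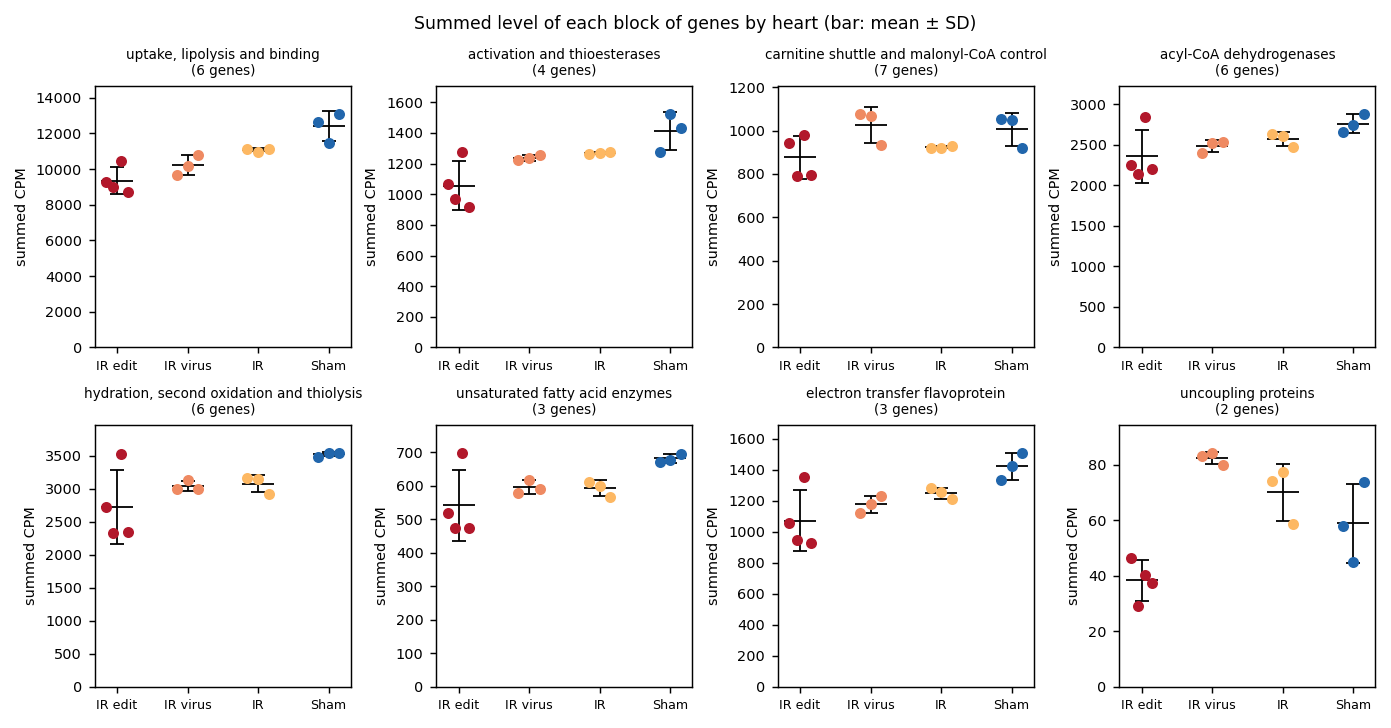
Summed CPM (vertical axes, from 0) of each block of genes in the 13 hearts, with 1 point per heart and a bar for mean ± SD; groups run from IR edit to Sham. In the block of uptake, lipolysis and binding genes all IR edit hearts (8702 to 10460 CPM) lie below all Sham hearts (11480 to 13100), and in the block of uncoupling proteins the IR virus hearts (79.8 to 84.1) lie above both IR edit (29.0 to 46.5) and Sham (45.1 to 73.6).

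Ucp3 encodes a mitochondrial carrier protein made in heart and skeletal muscle, and Cpt1a an outer-membrane carnitine palmitoyltransferase. The receptor pair PPAR and RXR, known for switching on many of these genes, binds a direct repeat called DR1, 2 copies of AGGTCA with 1 base between them. RefSeq promoter windows (GRCm38.p6, 250 bases before to 50 after the start) were found for 29 of 37 members, and both strands were searched with at most 2 mismatches in the copies. A match was found for 5 of the 29 members and for 4.40% of the 27025 genes in the table. The ERR motif TCAAGGTCA, searched exactly on both strands, had no match in the members' windows and a match for 0.466% of all genes; it ends in the same letters as a copy of the DR1 repeat and may overlap one. The windows' stretches around 4 of the 5 matches are shown so that the letters behind this count can be read; the fifth, of Slc25a20, lies after the start. Capitals mark the copies of the repeat (or their complement, where the match is on the other strand), each pair with 2 mismatches, and all stretches read 5′ to 3′ on the gene's strand.
Ucp3, chr7:100472900-100472962, plus strand, from 91 to 29 bases before the start: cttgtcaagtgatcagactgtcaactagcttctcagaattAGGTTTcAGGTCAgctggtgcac
Cd36, chr5:17835937-17835999, minus strand, from 103 to 41 bases before the start: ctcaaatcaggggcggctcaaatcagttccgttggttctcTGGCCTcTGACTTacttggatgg
Echs1, chr7:140116482-140116544, minus strand, from 123 to 61 bases before the start: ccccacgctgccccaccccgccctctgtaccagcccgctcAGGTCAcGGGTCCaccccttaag
Etfa, chr9:55512298-55512360, minus strand, from 117 to 55 bases before the start: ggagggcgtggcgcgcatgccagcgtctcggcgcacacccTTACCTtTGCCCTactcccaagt
A match is a description of letters and not a binding site, and the window of Cpt1a held none.

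The comparison of IR edit with Sham covered editing, its delivery and injury together. All 37 members had negative log2 fold changes, against 50.2% of all genes tested, and the median was -0.31 over the members and -0.0015 over all genes. In edgeR's quasi-likelihood test, fitted to all 15690 genes with Benjamini-Hochberg adjustment at 0.05, 13 members fell, against 3.40% of all genes that were lower, and no member rose, against 4.61% of all genes that were higher. Without adjustment 30 members were lower at p under 0.05, against 11.2% of all genes. For 14 members every IR edit heart was below every Sham heart, against 8.18% of all genes. The 13 genes that fell were Lpl, Fabp4 and Slc27a1 of uptake, Acsl1, Acot1 and Acot2 of activation and its reversal, Acad11, Echs1, Hadhb and Eci2 of the oxidation steps, Etfa and Etfb of electron transfer, and Ucp3. The count of 13 depended on single hearts: it was 30 without IR edit replicate 3, 3 without replicate 2 and 7 without replicate 4, and it was 8, 8 and 4 without Sham replicates 1, 2 and 3. How many of all genes were called with those hearts left out was not counted. With replicate numbers as a block the count was 7, beside 241 of 15690 genes lower. Only IR edit had a replicate 4, so the block fitted that heart alone and took it out of the comparison. The count was 1 (Slc27a1), beside 87 of 15148 genes lower, when only these 7 hearts entered the fit and its estimate of the spread.

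**Figure D2:**
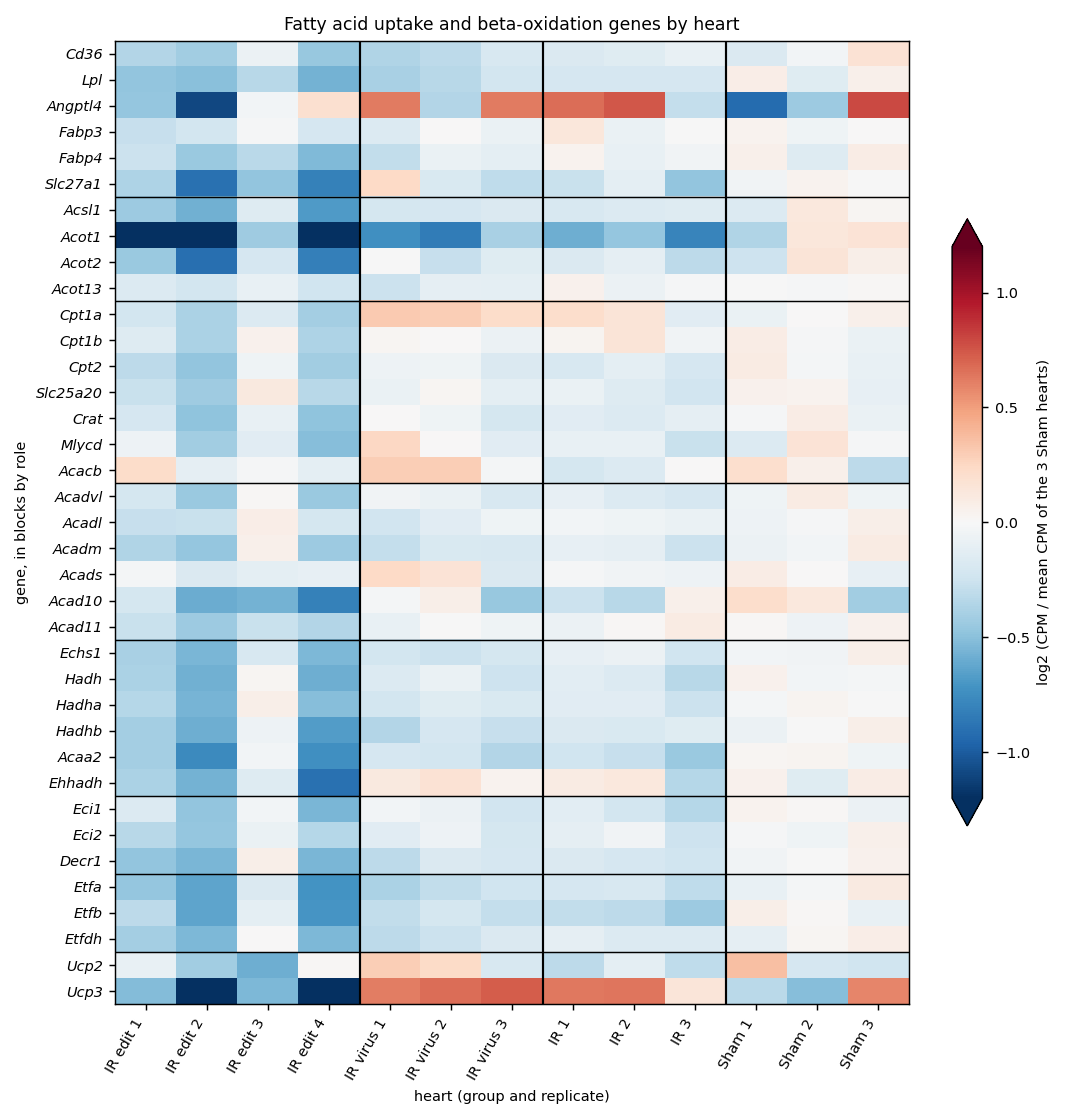
Log2 ratio of the CPM in each of the 13 hearts (columns) to the mean of the 3 Sham hearts, for the 37 members (rows, in blocks by role); blue is lower and red is higher than the Sham mean, and the scale is capped at 1.2 in both directions. IR edit replicates 2 and 4 are the bluest columns (medians of 71.7% and 70.2% of the Sham mean) and replicate 3 is close to white (94.1%), while Ucp3 and Cpt1a are red in the IR virus hearts.

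Among the 6 uptake, lipolysis and binding genes, 3 fell in IR edit against Sham. Lpl, the lipoprotein lipase that frees fatty acids from blood lipids (mm10 chromosome 8, 68880491 to 68907448), had 5940, 5803, 6533 and 5540 CPM in IR edit, 6293, 6555 and 7059 in IR virus, 7182, 7140 and 7142 in IR, and 8689, 7449 and 8564 in Sham. Every injured heart was below every Sham heart, and the log2 fold change of IR edit over Sham was -0.47 ± 0.085 (SE; edgeR adjusted p = 0.00558). Cd36, a fatty acid translocase of the cell membrane, had 2026, 1926, 2462 and 1886 CPM in IR edit, 2001, 2074 and 2257 in IR virus, 2281, 2335 and 2416 in IR, and 2291, 2528 and 2915 in Sham. IR edit replicate 3 overlapped Sham, and the fold change of -0.31 ± 0.10 did not pass (edgeR adjusted p = 0.0727).

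Slc27a1, a fatty acid transport protein (chromosome 8, 71568882 to 71587302), fell by 0.62 ± 0.14 on the log2 scale in IR edit against Sham (edgeR adjusted p = 0.016). It averaged 50.7 ± 8.93 CPM in IR edit (n = 4), 74.6 ± 15.5 in IR virus, 64.2 ± 7.91 in IR and 78.0 ± 2.19 in Sham (SD, n = 3 each). Fabp4, a fatty acid binding protein best known from fat cells and also made in capillary endothelium (chromosome 3, 10204088 to 10208576), had 400.7, 351.6, 383.3 and 331.3 CPM in IR edit, 389.6, 452.5 and 440.4 in IR virus, 492.3, 449.8 and 464.9 in IR, and 498.8, 430.3 and 507.9 in Sham. Its level in IR edit was below that in each IR and Sham heart, with a log2 fold change of -0.39 ± 0.086 against Sham (edgeR adjusted p = 0.0156). This call was lost in 5 of 17 alternatives. The endothelial marker sum was 788.7 to 913.1 CPM in IR edit and 751.2 to 883.3 in Sham, and the fat cell markers were at the low levels given above.

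Fabp3, the heart's own fatty acid binding protein, had 846.6, 881.9, 1019 and 896 CPM in IR edit, 915.4, 1030 and 975 in IR virus, 1126, 974 and 1027 in IR, and 1059, 991.5 and 1032 in Sham, with a log2 fold change of -0.17 ± 0.081 in IR edit against Sham (edgeR adjusted p = 0.206). Per kilobase of merged exons it was the most abundant member in IR edit (1107 CPM per kb) and in Sham (1248), followed in Sham by Lpl (786), Cd36 (718) and Acadl (552). Of the 50-base words of its transcripts, 29.2% also occur in a pseudogene, so some of its reads may have been placed elsewhere. Angptl4, a secreted inhibitor of lipoprotein lipase, had 2.5, 1.6, 3.4 and 3.9 CPM in IR edit, 5.3, 2.7 and 5.3 in IR virus, 5.5, 5.8 and 2.8 in IR, and 1.8, 2.5 and 6.0 in Sham. The lowest and the highest Sham heart differed more than any 2 hearts of another group, and no comparison passed the test.

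Acyl-CoA synthetases trap fatty acids as coenzyme A esters, and thioesterases take the coenzyme A off again; 3 of the 4 members of this block fell. Acsl1, the main synthetase of heart, had 886, 803.5, 1077 and 748.3 CPM in IR edit, 1035, 1043 and 1061 in IR virus, 1046, 1070 and 1073 in IR, and 1071, 1306 and 1215 in Sham, a log2 fold change of -0.45 ± 0.11 in IR edit against Sham (edgeR adjusted p = 0.0201). IR edit replicate 3 overlapped the lowest Sham heart, and the call was lost in 6 of 17 alternatives. Acot1, a cytosolic thioesterase and a known PPARα target, had 1.6, 0.90, 4.2 and 0.93 CPM in IR edit, 3.4, 3.2 and 4.3 in IR virus, 3.8, 4.1 and 3.3 in IR, and 4.4, 6.2 and 6.3 in Sham. It had the largest log2 fold change of the members, -1.60 ± 0.36 (edgeR adjusted p = 0.0168), with every IR edit heart below every Sham heart. IR edit replicate 3 was far above the other IR edit hearts, and without it the change was -2.27. The call was lost in 3 of 17 alternatives. These were the fit on only these 7 hearts (edgeR adjusted p = 0.0909), without IR edit replicate 2 (0.0544) and without Sham replicate 3 (0.0533).

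Acot2, the mitochondrial relative of Acot1, had 34.1, 24.7, 40.2 and 26.3 CPM in IR edit, 46.0, 38.3 and 41.8 in IR virus, 40.9, 42.9 and 37.2 in IR, and 38.9, 51.4 and 48.5 in Sham, a log2 fold change of -0.57 ± 0.14 (edgeR adjusted p = 0.0278). The Acot2 call was lost in 6 of 17 alternatives. Acot1 and Acot2 lie close together on chromosome 12 and share 50-base words with each other and with relatives (19.2% of those of Acot1 and 27.7% of those of Acot2), which makes the split of reads between them uncertain. Acot13, a smaller thioesterase, was at 138.1 to 153.3 CPM in IR edit and at 161.3 to 164.9 in Sham; the groups did not overlap, and the test did not pass (edgeR adjusted p = 0.113).

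None of the 7 members of the carnitine shuttle and its malonyl-CoA control passed the test in IR edit against Sham. Cpt2, the inner-membrane transferase, came nearest with a log2 fold change of -0.30 ± 0.090 (edgeR adjusted p = 0.0502). Crat, which makes acetylcarnitine, had the same size of change at -0.30 ± 0.095 (edgeR adjusted p = 0.062), Slc25a20, the carnitine-acylcarnitine carrier, was at -0.21 ± 0.11, and Mlycd, which removes malonyl-CoA, was at -0.27 ± 0.12. Acacb, which makes the malonyl-CoA that inhibits the shuttle, was at -0.00061 ± 0.12, and its sign turned under other scalings. Cpt1b, the muscle form of the shuttle's first enzyme, had 9.98, 8.51, 11.5 and 8.58 CPM in IR edit, 11.3, 11.2 and 10.6 in IR virus, 11.4, 12.4 and 10.8 in IR, and 11.8, 10.98 and 10.5 in Sham. Its groups overlapped, and 81.4% of its exon bases are shared with an annotated locus on the same strand (Gm44502) that has no row in the tables, which makes its counts uncertain.

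**Figure D3:**
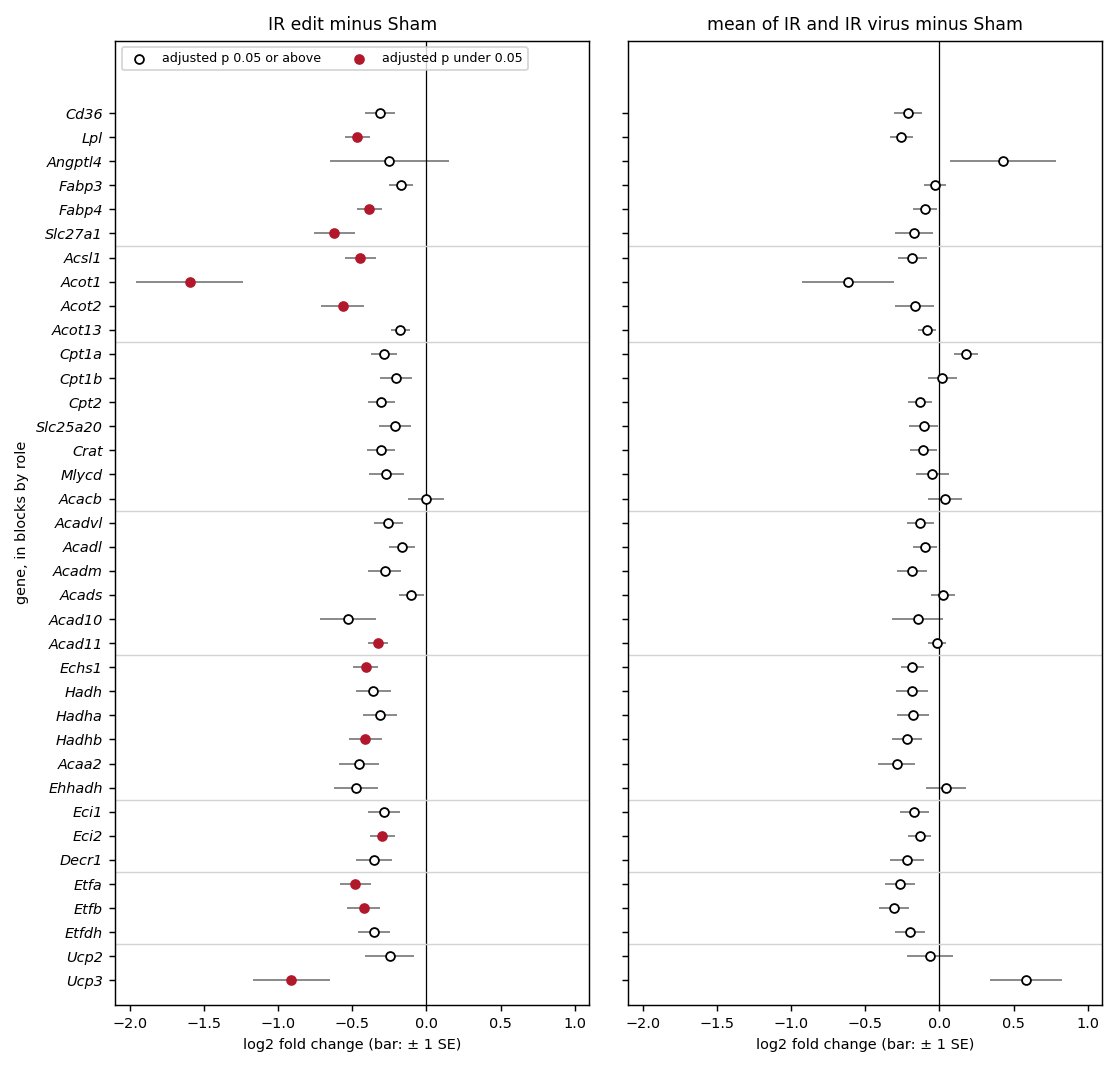
Log2 fold change with bars of ± 1 SE (horizontal axes) for the 37 members in IR edit minus Sham (left) and in the mean of IR and IR virus minus Sham (right); filled points have an edgeR adjusted p under 0.05. All points on the left are at or below 0 and 13 are filled. On the right none is filled, 30 points lie below 0 and 7 above it, with Ucp3 (0.58), Angptl4 (0.43) and Cpt1a (0.18) the highest. The panels share the 3 Sham hearts. The filled points depend on the fit to all 13 hearts. With only the groups compared, 1 member was called lower for the left panel (87 of 15148 genes lower). For the right panel 4 members were called lower (130 of 15393 genes lower).

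The acyl-CoA dehydrogenases carry out the first step of each round of beta-oxidation, each for its own range of chain lengths. Among these 6 members only Acad11, which acts on long chains (chromosome 9, 104063377 to 104127725), fell in IR edit against Sham, by 0.33 ± 0.067 on the log2 scale (edgeR adjusted p = 0.00979). It had 121.0, 108.1, 121.5 and 114.7 CPM in IR edit, 137.5, 145.2 and 141.0 in IR virus, 139.2, 147.8 and 156.0 in IR, and 147.1, 140.1 and 151.0 in Sham. Each IR edit heart, replicate 3 included, was below each heart of the other groups. Acadm, the medium-chain enzyme, had 871.4, 813.7, 1170 and 824.9 CPM in IR edit, 919.3, 988.8 and 979.4 in IR virus, 1046, 1038 and 933 in IR, and 1065, 1093 and 1199 in Sham, with a log2 fold change of -0.28 ± 0.11 (edgeR adjusted p = 0.13).

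In Acadm, IR edit replicate 3 was at the level of Sham and the other IR edit hearts were lower. Acadl, the long-chain enzyme, had 911.9, 916.6, 1167 and 958.2 CPM in IR edit, 943.6, 1005 and 1069 in IR virus, 1079, 1065 and 1044 in IR, and 1059, 1097 and 1161 in Sham; replicate 3 of IR edit was its highest heart of all. Acadvl, the very-long-chain enzyme, was at -0.26 ± 0.10 and Acads, the short-chain enzyme, at -0.10 ± 0.087. Acad10, expressed at 2.6 to 4.0 CPM in IR edit and 3.5 to 5.3 in Sham, was at -0.53 ± 0.19 (edgeR adjusted p = 0.0977). Of the exon bases of Acadvl 42.9% overlap Dvl2 on the other strand, and how strand was treated in counting is not given in the sources used here.

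The 6 genes of hydration, second oxidation and thiolysis were all lower in IR edit than in Sham at an unadjusted p under 0.05, and 2 of them passed after adjustment. Echs1, the short-chain enoyl-CoA hydratase, had 204.3, 182.4, 234.2 and 183.3 CPM in IR edit, 230.0, 222.9 and 230.5 in IR virus, 249.5, 254.4 and 225.9 in IR, and 261.6, 259.0 and 280.7 in Sham. Every injured heart was below every Sham heart, and the log2 fold change was -0.41 ± 0.085 in IR edit against Sham (edgeR adjusted p = 0.0111). Hadhb, the thiolase subunit of the trifunctional protein, fell by 0.41 ± 0.11 (edgeR adjusted p = 0.0354), a call lost in 8 of 17 alternatives, and 19.7% of its 50-base words also occur in other loci. Hadha, the hydratase and dehydrogenase subunit of the same complex, had 1167, 1007, 1551 and 1039 CPM in IR edit, 1271, 1334 and 1306 in IR virus, 1347, 1350 and 1241 in IR, and 1457, 1509 and 1473 in Sham.

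Replicate 3 of IR edit was the highest heart of all for Hadha, and the log2 fold change of -0.31 ± 0.12 did not pass (edgeR adjusted p = 0.114). Acaa2, the mitochondrial thiolase (-0.45 ± 0.14, edgeR adjusted p = 0.0529), and Ehhadh, the peroxisomal bifunctional enzyme (-0.48 ± 0.15, edgeR adjusted p = 0.0602), missed the threshold narrowly, and Hadh, the short-chain hydroxyacyl-CoA dehydrogenase, was at -0.36 ± 0.12. Of the 3 enzymes that deal with the double bonds of unsaturated fatty acids, the isomerase Eci2 fell by 0.30 ± 0.086 (edgeR adjusted p = 0.0468), a call lost in 11 of 17 alternatives. The isomerase Eci1 was at -0.29 ± 0.11 and the reductase Decr1 at -0.35 ± 0.12, and neither passed.

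Electron transfer flavoprotein collects the electrons of the dehydrogenases, and both of its subunits fell. Etfa, the alpha subunit, had 437.6, 388.5, 536.5 and 367.7 CPM in IR edit, 462.4, 493.1 and 511.2 in IR virus, 525.1, 529.4 and 488.9 in IR, and 567.4, 592.4 and 649.9 in Sham, a log2 fold change of -0.48 ± 0.11 in IR edit against Sham (edgeR adjusted p = 0.0154). Every injured heart was below every Sham heart, and the call for Etfa in IR edit against Sham was lost in 3 of 17 alternatives. Etfb, the beta subunit, fell by 0.42 ± 0.11 (edgeR adjusted p = 0.0319), a call lost in 8 of 17 alternatives; 58.2% of its exon bases are shared with annotated loci on the same strand. Etfdh, which hands the electrons on to ubiquinone, was at -0.35 ± 0.11 (edgeR adjusted p = 0.062).

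Ucp3 (chromosome 7, 100472990 to 100486432) had 25.2, 12.1, 24.9 and 14.7 CPM in IR edit, 55.4, 57.6 and 60.1 in IR virus, 56.0, 56.5 and 40.1 in IR, and 28.9, 25.4 and 54.5 in Sham. The IR edit hearts were the 4 lowest of all 13, although the highest of them was only just under the lowest Sham heart, and Sham replicate 3 was at the level of the IR virus hearts. The log2 fold change of IR edit over Sham was -0.91 ± 0.26 (edgeR adjusted p = 0.0461), a call that was lost in 10 of 17 alternatives. Ucp2, a related carrier found in many tissues, had 21.3, 16.9, 15.1 and 22.8 CPM in IR edit, 27.7, 26.5 and 19.7 in IR virus, 18.1, 20.9 and 18.3 in IR, and 29.0, 19.7 and 19.1 in Sham, and its groups overlapped.

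The injured hearts without editing show what IR alone, or IR with a control virus, did to the same genes. In IR against Sham 31 of 37 members had negative log2 fold changes (49.8% of all genes), and for 16 members every IR heart was below every Sham heart (6.45% of all genes). In IR virus against Sham 29 members were negative (48.3% of all genes), 16 members were lower without overlap (10.3%) and 2, Cpt1a and Ucp3, were higher without overlap (11.0%). These counts share the Sham hearts. No member passed edgeR's adjusted threshold in either comparison, where 0.00637% of all genes were called in each direction. At an unadjusted p under 0.05, 3 members were lower in IR (Etfb, Lpl and Acaa2; 3.08% of all genes) and none was higher (5.25%), while 7 were lower in IR virus (6.72%) and 2 were higher (8.64%). DESeq2 called 1 member, Lpl, lower in IR virus against Sham (0.382% of all genes lower) and none in IR against Sham (0.0892% lower).

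With the IR and IR virus hearts set together against Sham, edgeR called no member, against 0.00637% of all genes lower and 0.0127% higher. At an unadjusted p under 0.05, 6 members were lower (6.10% of all genes) and 2 were higher (7.85%), and DESeq2 called 1 lower, again Lpl (0.421% of all genes lower). In edgeR, Lpl had the smallest p with a log2 fold change of -0.26 ± 0.078 (edgeR adjusted p = 0.19), followed by Etfb at -0.31 ± 0.10 (0.228), Etfa at -0.27 ± 0.098 (0.257), Ucp3 at 0.58 ± 0.24 (0.31), Echs1 at -0.18 ± 0.079 (0.321) and Acaa2 at -0.29 ± 0.13 (0.324), all adjusted p from edgeR. A fit on only the 9 hearts concerned called 4 members lower, Acot1, Acaa2, Etfa and Etfb, against 0.845% of all genes tested in that fit. The same kind of fit called 1 member lower in IR edit against Sham, beside 87 of 15148 genes lower. Which of these comparisons had more members called therefore depended on the hearts in the fit. The hearts with control virus were also set against the uninjected injured hearts. Among the 15690 genes neither edgeR nor DESeq2 called any between IR virus and IR. Without the filter on low counts edgeR called 21 higher and 16 lower of 31973. At an unadjusted p under 0.05, 1 member was lower (Acot13; 1.59% of all genes) and 1 was higher (Acacb; 2.26%).

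**Figure D4:**
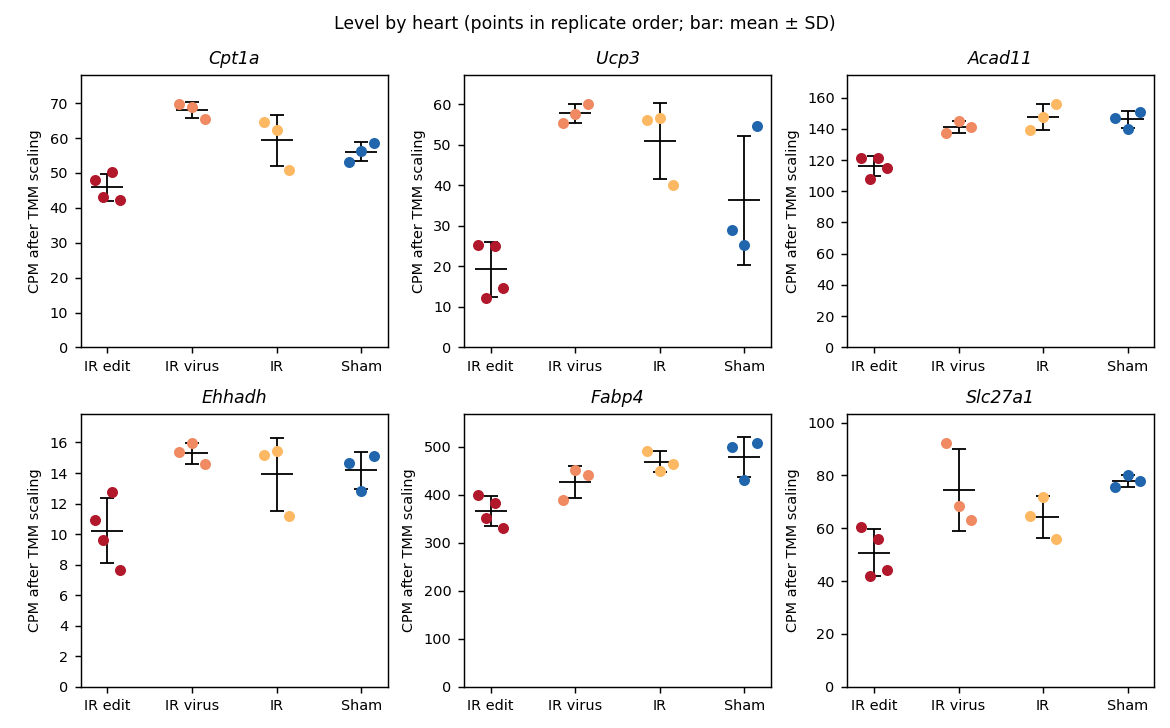
CPM after TMM scaling (vertical axes, from 0) of Cpt1a, Ucp3, Acad11, Ehhadh, Fabp4 and Slc27a1 in each heart, with a bar for mean ± SD; groups run from IR edit to Sham. For Cpt1a, Ucp3 and Acad11 the 4 IR edit points lie below every IR virus and IR point (at most 50.2, 25.2 and 121.5 CPM in IR edit), whereas Slc27a1 overlaps between IR edit and IR.

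IR edit was also compared with the injured groups, of which only IR virus had a control virus. The IR hearts had no injection, so against IR editing and its delivery cannot be told apart. Against the mean of both groups they are told apart only in part. Against IR virus all 37 members had negative log2 fold changes (51.5% of all genes) and 3 fell in edgeR's test (1.06% of all genes lower). These were Cpt1a, Ucp3 and Acad11. Against IR the same 3 genes fell (0.637% of all genes lower). Against the mean of both groups 5 fell (1.80% of all genes lower), these 3 together with Ehhadh and Fabp4, and for 3 members, again Cpt1a, Ucp3 and Acad11, every IR edit heart was below every IR and IR virus heart (3.13% of all genes). The 3 comparisons share the IR edit hearts. Without IR edit replicate 3 the counts were 12 against IR virus, 15 against IR and 23 against the mean of both. Calls over all genes with single hearts left out were not counted, so these member counts have no share to stand beside. Against IR, leaving out IR edit replicate 2, IR edit replicate 4 or IR replicate 1 left 1 call each. Leaving out IR replicate 2 left 0. Against the mean of both, 3 calls were left when any one of IR edit replicates 2 and 4, IR virus replicate 2 and IR replicates 1 and 2 was dropped.

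Cpt1a (chromosome 19, 3322334 to 3385733), the form of the shuttle's first enzyme that is dominant in liver and also made in heart, had 48.0, 43.2, 50.2 and 42.2 CPM in IR edit, 69.8, 68.9 and 65.3 in IR virus, 64.7, 62.3 and 50.97 in IR, and 53.2, 56.4 and 58.6 in Sham. The IR edit hearts were the 4 lowest of all 13, and the IR virus hearts were the 3 highest. Its log2 fold change in IR edit was -0.57 ± 0.087 against IR virus (edgeR adjusted p = 0.00363), -0.37 ± 0.088 against IR (edgeR adjusted p = 0.0499) and -0.29 ± 0.088 against Sham (edgeR adjusted p = 0.0552). Against the mean of IR and IR virus it was -0.47 ± 0.075 (edgeR adjusted p = 0.00262), and this call held in each of 20 alternatives with adjusted p up to 0.0223. The call against IR alone was lost in 12 of 17 alternatives.

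Ucp3 fell in IR edit by 1.59 ± 0.26 on the log2 scale against IR virus (edgeR adjusted p = 0.00621) and by 1.40 ± 0.26 against IR (edgeR adjusted p = 0.0132; lost in 3 of 17 alternatives, among them without IR replicate 1 and without IR replicate 2). Against the mean of both it was at -1.50 ± 0.23, or 0.355 of their level (edgeR adjusted p = 0.00218), and this call also held in each of 20 alternatives, with adjusted p up to 0.019. In IR virus against Sham it was at 0.67 ± 0.28 and in IR against Sham at 0.49 ± 0.28, neither of which passed (edgeR adjusted p = 0.269 and 0.674). The mean in IR edit was 19.2 ± 6.82 CPM (SD, n = 4), against 57.7 ± 2.35 in IR virus, 50.9 ± 9.30 in IR and 36.3 ± 15.9 in Sham (SD, n = 3 each).

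Acad11 fell in IR edit by 0.28 ± 0.067 against IR virus (edgeR adjusted p = 0.0417), by 0.34 ± 0.066 against IR (edgeR adjusted p = 0.0161) and by 0.31 ± 0.057 against the mean of both (edgeR adjusted p = 0.00607). The last call held in each of 20 alternatives with adjusted p up to 0.0408, whereas that against IR virus was lost in 11 of 17 and that against IR in 6 of 17. The unedited injured hearts and Sham overlapped in this gene; means were 116.3 ± 6.30 CPM in IR edit (SD, n = 4), against 141.2 ± 3.82 in IR virus, 147.7 ± 8.39 in IR and 146.1 ± 5.56 in Sham (SD, n = 3 each). Ehhadh averaged 10.2 ± 2.14 CPM in IR edit, 15.3 ± 0.70 in IR virus, 13.9 ± 2.38 in IR and 14.2 ± 1.22 in Sham, and fell by 0.52 ± 0.13 against the mean of IR and IR virus (edgeR adjusted p = 0.0336). Fabp4 fell by 0.29 ± 0.074 in the same comparison (edgeR adjusted p = 0.0413). These calls were lost in 8 of 20 alternatives for Ehhadh and in 10 of 20 for Fabp4.

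The next members by p missed the threshold. Against IR virus, Slc27a1 was at -0.56 ± 0.14 (edgeR adjusted p = 0.054), Ehhadh at -0.59 ± 0.15 (0.0541) and Acot2 at -0.43 ± 0.14 (0.163). Against IR, Fabp4 was at -0.35 ± 0.086 (edgeR adjusted p = 0.0547), Echs1 at -0.28 ± 0.085 (0.137) and Lpl at -0.27 ± 0.085 (0.154), and against the mean of both, Slc27a1 was at -0.45 ± 0.12 (0.051). IR against Sham and IR edit against IR virus have no heart in common. In these, 31 members were negative in both, and 6, Acad11, Angptl4, Cpt1a, Cpt1b, Fabp3 and Ucp3, were positive in the first and negative in the second. Since all 37 members were negative in the second, these counts only repeat the signs of IR against Sham. The share of all genes negative in both was not counted.

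Genes of neighbouring routes were read from the same fit, in which 3.40% of all genes were called lower in IR edit against Sham. Of 17 tested genes of peroxisomal beta-oxidation, Abcd3, a transporter of the peroxisome membrane, fell in IR edit against Sham (-0.38 ± 0.10, edgeR adjusted p = 0.0339), and the median over these genes was -0.13. Of 15 tested genes of other activation, transport and carnitine steps, 2 fell, Slc22a5, the carnitine carrier of the cell membrane (-0.45 ± 0.12, edgeR adjusted p = 0.0394), and Aldh9a1, an enzyme of carnitine synthesis (-0.47 ± 0.10, edgeR adjusted p = 0.0137); the median was -0.021. Of 19 tested genes of ketone body and branched-chain acyl-CoA oxidation, 8 fell and the median was -0.25. The 4 with the smallest p were Bckdhb and Dbt, subunits of the branched-chain keto acid dehydrogenase (-0.58 ± 0.12 and -0.54 ± 0.13, edgeR adjusted p = 0.00976 and 0.0227), Mut, the methylmalonyl-CoA mutase (-0.41 ± 0.10, edgeR adjusted p = 0.0252), and Hsd17b10, a dehydrogenase of isoleucine breakdown (-0.39 ± 0.099, edgeR adjusted p = 0.0279). The count of 8 was 4, 1 and 1 without IR edit replicates 1, 2 and 4 and 1, 5 and 1 without Sham replicates 1, 2 and 3. Calls over all genes in those fits were not counted.

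Of 17 tested nuclear regulators, among them Ppara, Ppargc1a, Rxra and Esrra, only Nr2f2, the orphan receptor COUP-TFII, fell in IR edit against Sham (-0.33 ± 0.083, edgeR adjusted p = 0.0275). Over all genes 3.40% were lower, and the median over the regulators was -0.093. Nr2f2 had 13.2, 13.7, 14.6 and 12.7 CPM in IR edit, 18.9, 18.1 and 19.6 in IR virus, 17.5, 20 and 17.8 in IR, and 18.3, 16.3 and 16.2 in Sham. Aldh9a1 had 32.9, 25.0, 27.7 and 23.8 CPM in IR edit, 39.7, 38.6 and 41.2 in IR virus, 43.5, 38.8 and 39.8 in IR, and 35.7, 35.8 and 42.4 in Sham. In both genes every IR edit heart was below every heart of the other groups. The share of all genes with this order was not counted, and both genes were named because they were called in IR edit against Sham. Against the mean of IR and IR virus, Nr2f2 fell by 0.46 ± 0.071 (edgeR adjusted p = 0.00201) and Aldh9a1 by 0.56 ± 0.088 (edgeR adjusted p = 0.00243).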

How the data were processed

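Per the labels, RNA came from whole mouse hearts and libraries from the KAPA mRNA HyperPrep kit. The authors deposited raw counts per gene symbol, 1 table per library; the submitters' processing notes list mm10, featureCounts 1.6.2 and HISAT2 2.1.0, with Trimmomatic 0.39 and FastQC 0.11.8. Annotation, strandedness and the treatment of multimapping reads are not given in the sources used. From these counts, edgeR 4.0.16 (R 4.3.3) was run with TMM scaling, filterByExpr and a mean per group over 13 libraries, with 9 residual and 6.08 prior degrees of freedom (common BCV 0.116). Calls are quasi-likelihood tests with a Benjamini-Hochberg adjusted p under 0.05 over 15690 genes. A log2 fold change is the first-named group over the second, with SE = its size divided by the square root of F. Group means of IR and IR virus weigh both groups equally. Alternatives were DESeq2 1.42.0 (Wald test, and its size factors in edgeR), other scalings and filters, robust dispersions, a replicate block, only the groups compared, and leaving out each heart.

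The members, the gene lists and the naming of genes were chosen with earlier results of these data known. The rule named all members in IR edit against Sham, in other comparisons those past the threshold filled up to 6 by p, and from each neighbouring list up to 4 called genes. Positions and merged exon lengths are from GENCODE M21 (37 of 37 members found), and promoters from RefSeq. Libraries of one group are separate samples by label, and nothing states how they were housed or prepared, so p-values measure the spread between these samples; within groups, counts differed by more than sampling noise (chi-square per degree of freedom from 4.65). The lowest count of a member in any library was 20 for Acot1, 36 for Angptl4, 60 for Acad10 and 189 for Ehhadh, and was higher for the others. The test scripts were tested on simulated data.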

Additional observations from a re-analysis of the deposited data

Results flagged for a closer look

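In the group of 4 IR edit hearts, a single heart stood far from the rest for 2 of the 38 levels examined (37 members and their sum), and chance alone flags about 1 in 20 such groups. IR edit replicate 3 had 1170 CPM of Acadm, against 813.7 to 871.4 CPM in the other IR edit hearts. The same heart had 483.0 CPM of Decr1, against 313.2 to 330.0 CPM in the others. In Sham, Acadm was at 1065 to 1199 CPM and Decr1 at 445.1 to 475.5 CPM, so that the heart stood near or inside the range of Sham for both genes. It also had the lowest depth, 20634820 counts, and 37.4% of its counts on mitochondrial transcripts, against 29.7% to 32.2% in the other IR edit hearts and 34.9% to 38.5% in Sham. The part of these differences in the levels was not tested.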

How the results depend on the processing

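Most directions held, and counts of calls moved. Of 79 single-gene results under 1355 alternatives, 1150 kept their direction and their side of the threshold, 115 lost the call, 81 gained one and 9 turned sign. Only calls of the main fit could be lost. For IR edit these were 13 against Sham, 3 against IR virus, 3 against IR and 5 against the mean of IR and IR virus. Against Sham, the calls of Lpl, Slc27a1 and Echs1 were each lost in 1 of 17 alternatives and that of Acad11 in 2. The turned ones were Acacb in IR edit against Sham, at 0.082 with total counts, 0.081 with cardiomyocyte-marker scaling, 0.044 with the replicate block and -0.14 to 0.11 when single hearts were left out, and Angptl4, at -0.58 to 0.39, the last without Sham replicate 3. Members lower in IR edit against Sham numbered 13, and 10 with total counts, 10 with cardiomyocyte-marker scaling, 12 with DESeq2 size factors, 27 with no filter, 20 with DESeq2, 7 with the replicate block, 1 with only the groups compared and 3 to 30 with single hearts left out. Over all genes that comparison called 723 higher and 534 lower with TMM but 943 and 314 with total counts, and 783 and 314 with cardiomyocyte-marker scaling. Genes lower numbered 971 of 31973 with no filter, 692 with DESeq2, 241 with the replicate block and 87 of 15148 with only the groups compared.

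Against IR virus the 3 members lower in IR edit were 9 with no filter, 5 with DESeq2 and 2 to 12 with single hearts left out. Against IR they were 1 with cardiomyocyte-marker scaling, 9 with no filter, 5 with DESeq2, 1 with only the groups compared and 0 to 15 with single hearts left out. Against the mean of both the 5 were 10 with no filter, 3 with the replicate block and 3 to 23 with single hearts left out. With no filter, 488, 435 and 617 of 31973 genes were lower against IR virus, IR and the mean of both. DESeq2 had 253 lower against IR virus and 195 against IR. Against IR, 94 were lower with cardiomyocyte-marker scaling and 64 of 15151 with only the groups compared. With the block 133 were lower against the mean of both. The unedited injured groups, with no member called, had with no filter 4 lower and 1 higher in IR virus against Sham, 3 lower and 1 higher in IR against Sham, and 5 lower and 1 higher for both groups against Sham. Of the 31973 genes then tested, 324 were lower and 539 higher in IR virus, 222 and 376 in IR, and 383 and 557 for both groups. DESeq2 called 1 lower in IR virus and 1 for both groups, and only the groups compared gave 4 for both groups.

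Among neighbouring lists in IR edit against Sham, peroxisomal genes (1 called) had 0 with cardiomyocyte-marker scaling, 2 with no filter, 0 with the replicate block, 2 with DESeq2, 0 with only the groups compared and 0 to 3 with single hearts left out. Other activation and carnitine genes (2 called) had 1 with total counts, 1 with cardiomyocyte-marker scaling, 1 with the block, 0 with only the groups compared and 0 to 4 with single hearts left out. Ketone body and branched-chain genes (8 called) had 3 with cardiomyocyte-marker scaling, 2 with the block, 0 with only the groups compared and 1 to 11 with single hearts left out. Regulators (1 called) had 0 with total counts, 0 with cardiomyocyte-marker scaling, 3 with no filter, 0 with the block, 2 with DESeq2, 0 with only the groups compared and 0 to 3 with single hearts left out. The cause of these changes was not tested.

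Of 18 same-numbered pairs of hearts, 3 had correlated deviations above 0.1 (range -0.13 to 0.22). With so few hearts per group this does not settle whether replicate numbers pair the hearts. With replicate numbers as a block, edgeR called 130 genes higher and 44 lower in IR virus against Sham, and without it 1 in each direction. Depth limits Acot1, Angptl4 and Acad10 most.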
